A study of Mus musculus with 4 samples.

Results

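Collagen chain genes were followed across 4 Affymetrix MOE430A arrays of mouse embryonic fibroblasts (MEFs), connective tissue cells taken from embryos that build and secrete matrix in culture. Every probe set annotated with a single symbol made of Col, a type number, the letter a and a chain number was taken, whatever its signal. This gave 58 probe sets for 36 genes, out of 22626 probe sets that are not controls and 12393 genes with a probe set of their own. The 2 control samples had received an empty pBabePuro retrovirus, and the 2 mTert samples the same vector carrying mouse Tert, which encodes the reverse transcriptase of telomerase. All 4 samples therefore went through infection with a vector that confers puromycin resistance. In a pBabe vector the insert is driven by the viral long terminal repeat, so Tert expression was forced in all infected cells and not set by the gene's own promoter. The labels give no strain, passage number, embryo age or time after infection, and do not say whether samples were pools of infected cells or separate cultures. Whether the spread behind each p-value is biological or technical is therefore unknown.

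The titles number the samples 1 and 2 in each group, without saying what the numbers stand for. The collagens were compared between mTert and control, and between the arrays titled 2 and those titled 1, each time 2 against 2. Tert was called absent in both controls (signals 128 and 84.7) and present in both mTert samples (1164 and 845). On each array between 51.6% and 54.4% of probe sets were called present. The array of control 1 was made with 5 µg of labelled cRNA and each other array with 15 µg. All 8 fibroblast markers measured were present on at least 2 arrays, among them Vim, Thy1 and Pdgfrb, whereas 4 of 6 endothelial, 4 of 6 epithelial, 4 of 5 skeletal muscle and 3 of 7 cartilage markers were present on no array. Macrophage markers set the arrays titled 2 apart. Their summed signal over 12 genes was 3253 in control 1 and 3565 in mTert 1, against 13476 in control 2 and 13968 in mTert 2. The 11 tested in limma were all higher on the arrays titled 2 (adjusted p of at most 0.019), where 1.06% of all tested probe sets were called higher. Their differences were 1.18 to 3.61 on the log2 scale. Itgam was present on no array and was not tested. Of the 12 genes, 11 were present on both arrays titled 2 and 7 on both titled 1. Cd14, Fcer1g, Tyrobp and Cd53 met the filter on present calls only through the arrays titled 2, where they were high. Cd14 and Fcer1g are the ends of the range given. In bulk RNA, a change in the number of cells of a type and a change in RNA per cell cannot be told apart.

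Collagens are proteins of 3 chains wound into a triple helix, and each gene encodes 1 chain. Fibrillar collagens (types I, II, III, V and XI here) pack side by side into the fibres that give skin, tendon, bone and cartilage their strength. Network-forming collagens join at their ends instead: type IV makes the sheet of basement membranes, and the short-chain types VIII and X make hexagonal lattices. Type VI makes beaded filaments, type VII anchors basement membranes to the tissue beneath, and the FACIT collagens (types IX, XII, XIV and XVI among others) decorate the surface of fibrils. Multiplexins (types XV and XVIII) lie in basement membrane zones and release the fragments restin and endostatin. Fibroblasts are the main source of types I, III, V and VI in soft tissue.

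The genome arranges the chains of type IV in head-to-head pairs. Sequence at these starts is shown for 2 such pairs, and only Col4a5 and Col4a6 differed from each other in their detection calls. Promoters came from RefSeq on GRCm38.p6, which held 27 of the 36 genes. Col4a1 lies on the minus strand with its start at base 11312826 of chromosome 8, and Col4a2 on the plus strand with its start at 11312805. The first 22 positions of the genes therefore overlap, read from opposite strands. Both genes were present on all arrays. Col4a6 starts on the minus strand at base 141474076 of the X chromosome and Col4a5 on the plus strand at 141475419, a distance of 1343 bases. Here Col4a5 was present on all arrays and Col4a6 on none. In the first line below, capitals mark the positions where both genes overlap (chr8:11312801-11312830, plus strand). In the others, capitals mark the motifs CCAAT and GGGCGG, on either strand, in the 250 bases before the start (chrX:141475169-141475418, plus strand, and chrX:141474077-141474326, minus strand).
Col4a1 and Col4a2 starts: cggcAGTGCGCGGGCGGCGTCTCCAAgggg
Col4a5: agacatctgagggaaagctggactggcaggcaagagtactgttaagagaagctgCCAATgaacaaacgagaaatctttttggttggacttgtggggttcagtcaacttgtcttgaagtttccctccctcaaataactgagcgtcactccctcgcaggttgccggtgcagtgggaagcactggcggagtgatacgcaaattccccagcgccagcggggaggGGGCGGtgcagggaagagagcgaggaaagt
Col4a6: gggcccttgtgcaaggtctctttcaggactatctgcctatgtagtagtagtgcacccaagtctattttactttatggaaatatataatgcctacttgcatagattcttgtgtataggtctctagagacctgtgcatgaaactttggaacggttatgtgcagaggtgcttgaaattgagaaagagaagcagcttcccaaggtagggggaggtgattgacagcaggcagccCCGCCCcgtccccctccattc
The window of Col4a5 held a CCAAT and a GGGCGG, and that of Col4a6 a GGGCGG, read here on the other strand as CCGCCC, but no CCAAT. In the joint window of Col4a1 and Col4a2, a CCAAT lay 32 bases before the start of Col4a2 and another 162 bases after it. GGGCGG lay 48 and 192 bases before that start and 7 bases after it, the last within the bases shown. Of the 30 collagen promoters (some genes have 2), 12 held CCAAT and 16 held GGGCGG, that is 40% and 53.3%, against 33.8% and 32.7% of all 32851 promoters of the same length. TATAAA occurred in 5 of the 30, or 16.7%, against 12.4% of all. These matches describe the letters in the window only.

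Which chains were present was read from the detection calls, which the authors made on each array alone. A probe set was called present at a detection p of up to 0.046. At least 1 probe set was present on all 4 arrays for 19 of the 36 genes. A further 3 genes, Col7a1, Col10a1 and Col15a1, were present on some arrays, and 14 on none. Over probe sets, 31 of 58 (53.4%) were present on all arrays, against 48.4% of all probe sets that are not controls.

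The fibrillar class was the most fully represented of the larger classes. Present on all arrays were 7 of its 9 genes: both chains of type I (Col1a1, Col1a2), the single chain of type III (Col3a1), all 3 chains of type V (Col5a1, Col5a2, Col5a3) and Col11a1. The 2 others were cartilage chains, Col2a1 and Col11a2, called absent on every array, with signals of 441 to 549 for Col2a1 and 78.0 to 135 for Col11a2. Type XI, which in cartilage joins the products of Col11a1, Col11a2 and Col2a1, was thus represented by Col11a1 only. A second Col5a3 probe set was absent throughout at signals of 2.90 to 6.20, while the first was present on all arrays.

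Of the 8 network-forming genes, 4 were present on all arrays: Col4a1, Col4a2, Col4a5 and Col8a1. Col4a3 and Col4a4, partners of Col4a5 in the basement membrane of the kidney glomerulus, were absent on all arrays, as was Col4a6. Col10a1, a marker of hypertrophic cartilage, was present in control 1 only, at a signal of 479 against 235 to 336 on the other arrays. All 3 type VI genes were present throughout (Col6a1, Col6a2, Col6a3). Col7a1, the anchoring fibril chain made mostly by keratinocytes and fibroblasts of skin, was called present in control 1 and mTert 2 and absent on the others, with signals between 288 and 326.

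Among the 9 FACIT genes, Col9a1, Col12a1, Col14a1 and Col16a1 were present on all arrays, while Col9a2, Col9a3, Col19a1, Col20a1 and Col22a1 were present on none. One of the 3 probe sets of Col9a3 had a marginal call in control 2. Col9a1 was read by 2 probe sets that disagreed. One was present throughout at signals of 149 to 214 and the other absent throughout at 132 to 395. All 3 transmembrane chains (Col13a1, Col17a1, Col25a1) and Col26a1 were absent on all arrays. Both multiplexins were detected, Col18a1 on all arrays and Col15a1 on both arrays titled 1.

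**Figure D1:**
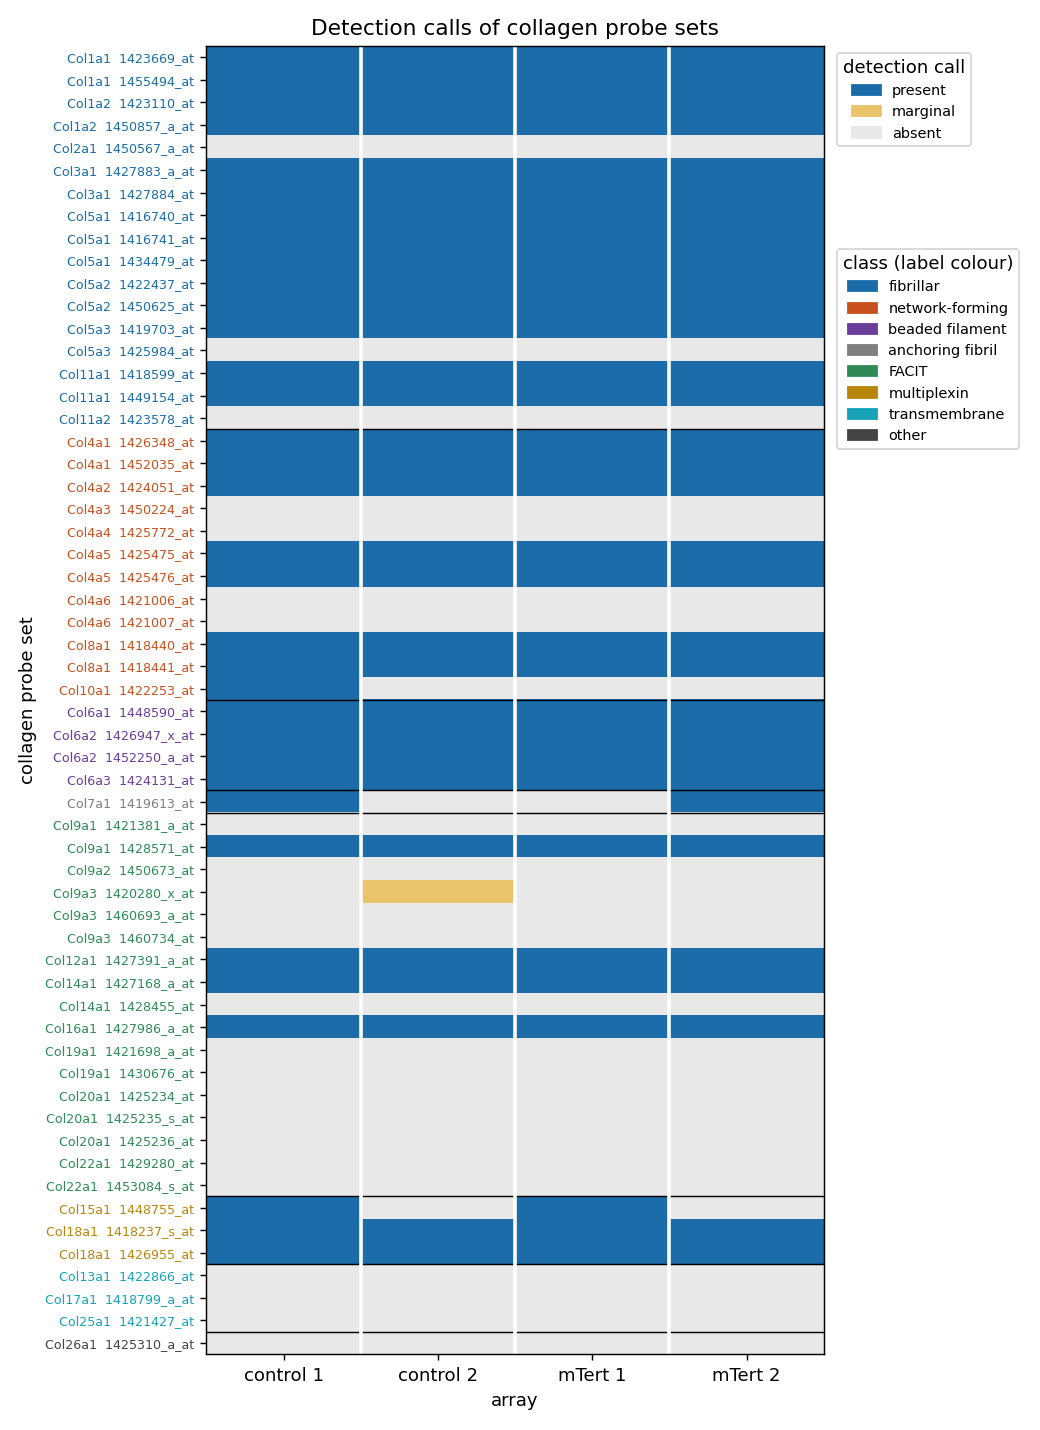
Detection call of each of the 58 collagen probe sets (rows, ordered by class, label colour giving the class) on each array (columns). Calls were present on all 4 arrays for 31 probe sets; Col15a1 was present on both arrays titled 1 and on neither titled 2.

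Differences were tested on probe sets called present on at least 2 of the 4 arrays, which held 33 of the 58 collagen probe sets and 21 of the 36 genes. Each gene is given by its brightest tested probe set. Signals are in arbitrary units scaled to a common trimmed mean, and values of different probe sets cannot be ranked against each other. Each difference is a log2 value with its standard error (SE) from limma, and n = 2 arrays in each group.

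In the comparison of mTert with control, which asks whether forced telomerase expression goes with a different collagen output, the limma fit called no collagen. None of the 21 genes passed at an adjusted p of 0.05 and none had an unadjusted p under 0.05. Of all probe sets tested, 0% passed and 2.11% had such an unadjusted p. Tert itself, with both mTert signals far above both controls, had an adjusted p of 0.19 in this fit, so the absence of calls does not show that collagens did not differ. The signs were even, with 11 genes higher and 10 lower in mTert. The median difference was 0.0085, beside 0.0058 over all tested probe sets, and single genes ranged from -0.15 (Col14a1) to 0.24 (Col15a1). Both mTert signals lay above both controls for 3 genes and below for 3, each 3 of 21, where all tested probe sets gave 13.4% above and 12.1% below.

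The fibrillar chains had a median size of difference, ignoring sign, of 0.033, and the network-forming chains one of 0.060. Col1a2, the second chain of type I, had signals of 16072 and 16638 in control 1 and 2, and 16050 and 15921 in mTert 1 and 2. Its difference was -0.033 (SE 0.058). Col1a1, its partner in the heterotrimer, had 12671 and 14154 in control and 12916 and 13150 in mTert, a difference of -0.039 (SE 0.075). The mTert signals of Col1a2 both lay just below the controls, while those of Col1a1 lay between them. Col3a1, the chain of the finer fibres that run with type I, had 13916 and 13349 in control and 14068 and 13390 in mTert, at 0.010 (SE 0.065). Col5a2, a chain of the type V collagen that starts fibril assembly, had 12723 and 12407 in control and 12201 and 12357 in mTert. It stood at -0.033 (SE 0.062).

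Col5a1, the other main type V chain, had the largest difference of the fibrillar class. Its signals were 6625 and 6828 in control and 7743 and 7400 in mTert, or 6726 ± 144 and 7572 ± 243 (mean ± SD, n = 2). The groups did not overlap, and the difference was 0.17 (SE 0.073, limma adjusted p = 1.00). The other probe sets of Col5a1 stood at 0.059 and -0.0050, so only 1 of 3 showed a difference of this size. Col5a3 had 1463 and 1199 in control and 1469 and 1190 in mTert, at -0.0019 (SE 0.16). Col11a1 had 3904 and 3953 in control and 3842 and 3698 in mTert, at -0.060 (SE 0.083). Over the 7 fibrillar genes the median difference was -0.033, with 2 genes higher and 5 lower in sign.

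Network-forming chains had a median of -0.013 over 4 genes, 2 of each sign. Col4a1 had 6301 and 5043 in control and 6124 and 4605 in mTert, and Col4a2, its partner in the ubiquitous type IV trimer, 3787 and 3233 against 3943 and 2959. In both genes the groups overlapped, at -0.086 (SE 0.17) and -0.035 (SE 0.16). Col4a5 had 1034 and 825 in control and 1106 and 1046 in mTert, at 0.22 (SE 0.15). Its groups did not overlap, but its second probe set stood at -0.057. Col8a1, a chain of endothelial and smooth muscle matrix, had 4517 and 4152 in control and 4658 and 4074 in mTert, at 0.0085 (SE 0.10), and its second probe set stood at -0.14.

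Of type VI, Col6a1 stood at 0.10 (SE 0.11), Col6a2 at 0.11 (SE 0.080) and Col6a3 at -0.036 (SE 0.12). Only Col6a2 had both mTert signals, 6839 and 7112, above both controls, 6751 and 6226. Its second probe set stood at 0.046 with overlapping groups. Col12a1 and Col16a1 stood at 0.14 (SE 0.15) and 0.064 (SE 0.14), and Col14a1 and Col9a1 at -0.15 (SE 0.19) and -0.045 (SE 0.26). Col7a1 stood at 0.023 (SE 0.17). Col15a1 stood at 0.24 (SE 0.48) with overlapping groups.

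In 2 genes a less bright probe set had an unadjusted p under 0.05 while the one that stands for the gene did not. The second Col18a1 probe set had 323 and 297 in control and 455 and 465 in mTert, a difference of 0.57 (SE 0.15), with an unadjusted limma p of 0.0090 and an adjusted p of 1.00. The brighter one had 941 and 665 in control and 663 and 962 in mTert, at 0.013 (SE 0.24), so the probe sets of this gene did not show the same pattern. RefSeq lists 2 starts for Col18a1. The second Col5a2 probe set had 7481 and 7559 in control and 5542 and 6831 in mTert, a difference of -0.29 (SE 0.11). In limma its unadjusted p was 0.040 and its adjusted p 1.00. These were the 2 of 33 collagen probe sets with an unadjusted p under 0.05 in this comparison (2.11% of all probe sets). Of the 12 other tested probe sets of these genes, 4 had the opposite sign to the brightest one, those of Col3a1 (-0.030), Col4a5, Col8a1 and 1 of Col5a1.

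**Figure D2:**
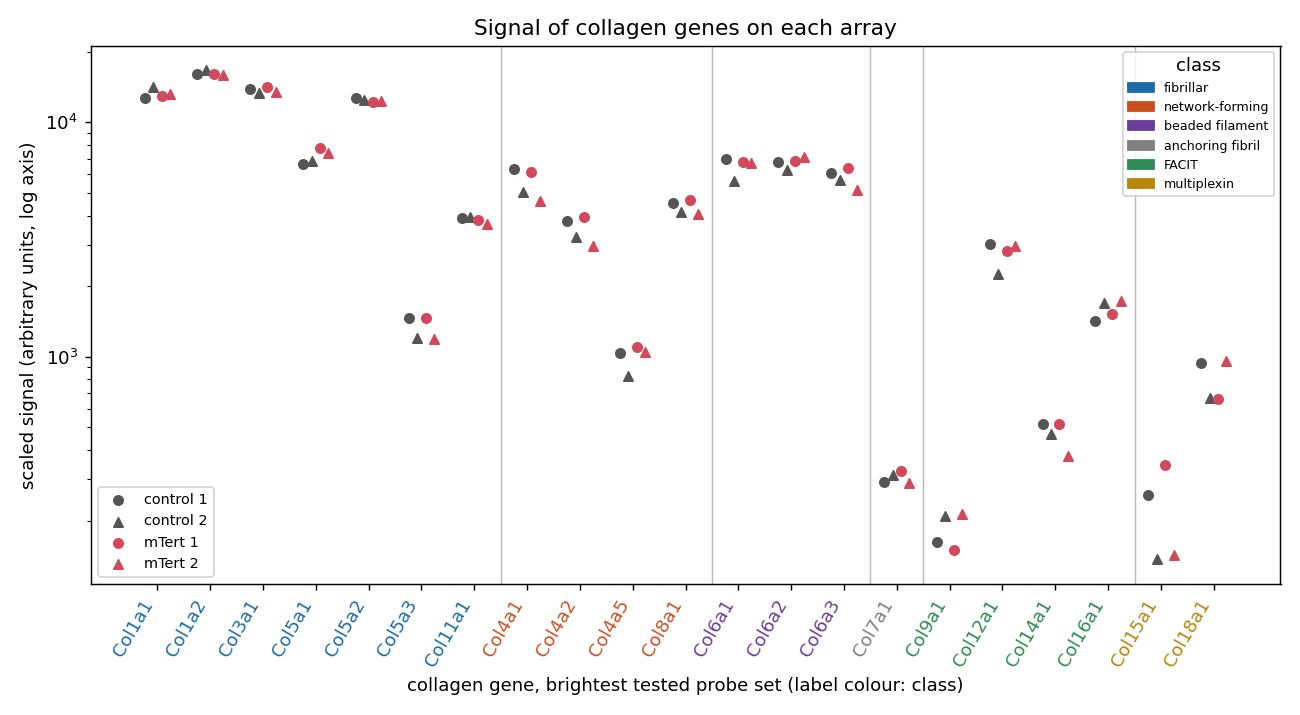
Scaled signal on a log axis (arbitrary units) of the 21 tested collagen genes on each array, circles for arrays titled 1 and triangles for those titled 2, grey for control and red for mTert. Whatever the colour, triangles lie below circles for 9 genes (Col3a1, Col4a1, Col4a2, Col5a3, Col6a1, Col6a3, Col8a1, Col14a1, Col15a1). They lie above for 3 (Col1a1, Col9a1, Col16a1). Col1a2 stays between 15921 and 16638. Heights of different genes cannot be compared.

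The arrays titled 2 and 1 differed more in collagens than mTert and control did. Over the 21 genes the median size of the difference, ignoring sign, was 0.16 between numbers and 0.045 between groups, against 0.12 and 0.096 over all tested probe sets. The arrays titled 2 were lower in 16 genes and higher in 5, with a median of -0.066, where all tested probe sets had a median of 0.00074 and 49.8% lower. Both arrays titled 2 lay below both titled 1 for 9 of 21 genes and above for 3, where all probe sets gave 19.4% below and 20.3% above. In the limma fit 6 genes had an unadjusted p under 0.05 (10.5% of all probe sets did), 1 of them higher and 5 lower on the arrays titled 2 (5.08% of all probe sets were lower at that p). Only 1 passed at an adjusted p of 0.05 (1.55% of all probe sets, or 0.492% lower and 1.06% higher on the arrays titled 2).

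The network-forming chains lay lower on the arrays titled 2, with a median of -0.26 over 4 genes, while the fibrillar chains had a median of -0.011 over 7. The network-forming median was -0.27 within control and -0.30 within mTert. The fibrillar median was 0.018 within control and -0.055 within mTert. All 7 network-forming probe sets tested were lower on the arrays titled 2, and in 6 of them without overlap (19.4% of all probe sets). Of the 14 fibrillar probe sets 8 were lower, 4 of them without overlap, and 2 were higher without overlap (20.3% of all probe sets). The difference between the classes was not tested, and 5 fibrillar probe sets but no network-forming one were among the 100 brightest of every array. The highest signal of an array was 16937 to 18805, so the brightest fibrillar probe sets were read close to the top of the scale, and its part in their small differences was not tested.

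Col4a1 was read at 6301 in control 1 and 6124 in mTert 1, against 5043 in control 2 and 4605 in mTert 2. Both arrays titled 2 lay well below both titled 1, with means of 4824 ± 310 and 6213 ± 125 (SD, n = 2). The difference was -0.37 (SE 0.074), or 1.29-fold, with an unadjusted limma p of 0.0011 and an adjusted p of 0.062, which misses the threshold. With the group as a further term in limma its adjusted p was 0.023, in a fit that called 2 collagen genes and 2.8% of all probe sets. Its second probe set stood at -0.17. Col4a2 had 3787 and 3943 on the arrays titled 1 against 3233 and 2959 on those titled 2, a difference of -0.32 (SE 0.083, limma adjusted p = 0.14). By their brightest probe sets, this pair of genes stood 1.29-fold and 1.25-fold lower on the arrays titled 2. The second Col4a1 probe set stood 1.12-fold lower.

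Col4a5 had 1034 and 1106 on the arrays titled 1 and 825 and 1046 on those titled 2. Its difference was -0.20 (SE 0.14), and its groups of arrays overlapped. Its second probe set had 698 and 711 on the arrays titled 1 and 656 and 595 on those titled 2, without overlap, at -0.17 (SE 0.13). Col8a1 had 4517 and 4658 against 4152 and 4074, a difference of -0.16 (SE 0.071, limma adjusted p = 0.50). Its second probe set had 1235 and 966 against 750 and 793, at -0.50 (SE 0.14, limma adjusted p = 0.18). Col10a1, too seldom present to be tested, had 479 and 336 on the arrays titled 1 and 235 on each array titled 2. The other untested network-forming genes, absent on every array, did not share this direction without overlap. Col4a4 had 5.80 and 6.40 on the arrays titled 1 and 33.4 and 10.1 on those titled 2. The arrays overlapped for Col4a3 and both probe sets of Col4a6.

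Of the fibrillar genes only Col5a3 had an unadjusted p under 0.05. Its signals were 1463 and 1469 on the arrays titled 1 and 1199 and 1190 on those titled 2, nearly equal within each number and 1.23-fold apart. The difference was -0.30 (SE 0.099, limma adjusted p = 0.29). Col1a1 stood at 0.093 (SE 0.057) with both arrays titled 2 above those titled 1, and Col3a1 at -0.066 (SE 0.050) with both below. Their second probe sets stood at 0.28 and 0.10, so that of Col3a1 had the opposite sign. Col1a2 stood at 0.019 (SE 0.050), Col5a1 at -0.011 (SE 0.088), Col5a2 at -0.0090 (SE 0.053) and Col11a1 at -0.018 (SE 0.077). The 2 less bright Col5a1 probe sets stood lower than the brightest, at -0.20 (limma adjusted p = 0.42) and -0.13, both without overlap between the arrays. Other probe sets lay on the other side of 0 for Col1a2 (-0.0081), Col5a2 (0.16) and Col11a1 (0.097). Col11a2, absent on every array and not tested, had 107 and 135 on the arrays titled 1 and 78.0 and 93.5 on those titled 2. It was thus lower without overlap, while the arrays overlapped for Col2a1, also untested.

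Col15a1, the chain of a proteoglycan that links basement membranes to the matrix around them, was the collagen that limma called. It met the filter on present calls only through the 2 arrays titled 1, where it was higher. Its adjusted p therefore does not give separate support to the difference in calls. Its signals were 258 in control 1 and 345 in mTert 1, against 137 in control 2 and 142 in mTert 2. It was called present on both arrays titled 1 and absent on both titled 2, so its level there is only a bound. With the signals taken as read, it stood 2.14-fold lower on the arrays titled 2, as a ratio of geometric means. The fitted difference was -1.10 (SE 0.21, limma adjusted p = 0.046), with -0.91 within control and -1.28 within mTert. The call rests on a weak signal, with a detection p of 0.038 on both arrays titled 1 and 0.19 and 0.22 on those titled 2. Without control 1 the limma adjusted p was 0.022, and without control 2, mTert 1 or mTert 2 it was 0.19, 0.16 and 0.16, so the call ended.

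Type VI was lower on the arrays titled 2 in sign in all 3 genes, with Col6a1 at -0.16 (SE 0.088), Col6a2 at -0.030 (SE 0.078) and Col6a3 at -0.20 (SE 0.077). The second Col6a2 probe set stood at -0.20 (SE 0.078, limma adjusted p = 0.38), with both arrays titled 2 below both titled 1. Col6a3, the longest chain of the filament, had 6053 and 6381 on the arrays titled 1 and 5692 and 5136 on those titled 2, with an unadjusted limma p of 0.031 and an adjusted p of 0.37. The FACIT chains lay on both sides. Col9a1 had 162 and 149 on the arrays titled 1 and 210 and 214 on those titled 2, at 0.45 (SE 0.19, limma adjusted p = 0.44), and Col16a1 1417 and 1516 against 1690 and 1727, at 0.22 (SE 0.098, limma adjusted p = 0.48). Both of these probe sets were higher on the arrays titled 2 without overlap. The other Col9a1 probe set, absent on every array, lay the other way without overlap. It had 331 and 395 on the arrays titled 1 and 132 and 207 on those titled 2. Col14a1 had 515 and 516 against 467 and 377, at -0.30 (SE 0.15). Col12a1 had 3036 and 2814 against 2243 and 2953, so that control 2 alone was low, at -0.18 (SE 0.13). Col7a1 stood at -0.038 (SE 0.16) and Col18a1 at 0.017 (SE 0.22), with a second Col18a1 probe set at -0.046.

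**Figure D3:**
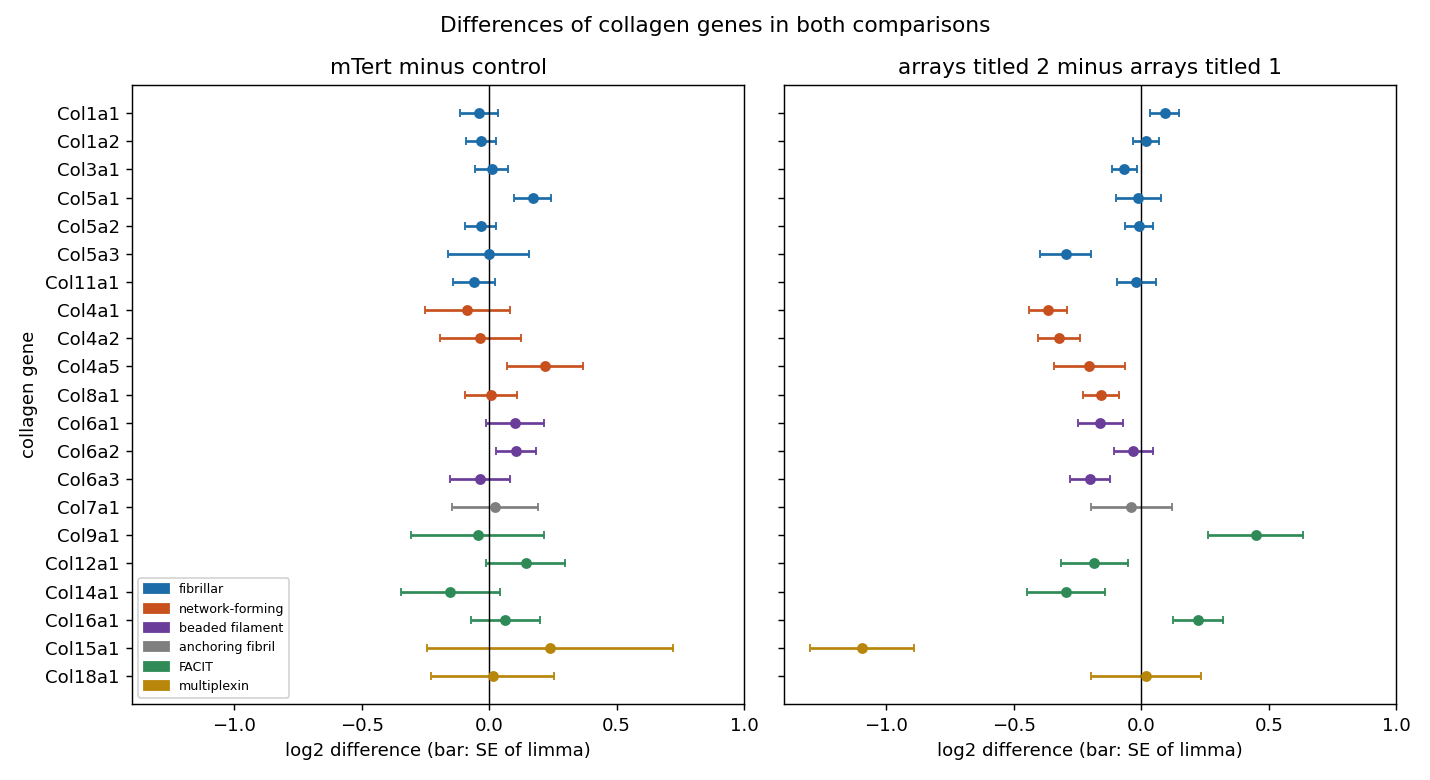
Log2 difference of the 21 tested collagen genes, mTert minus control (left) and arrays titled 2 minus arrays titled 1 (right), with the SE of limma as bars and classes by colour. On the left all genes lie between -0.15 and 0.24; on the right the 4 network-forming genes lie between -0.37 and -0.16 and Col15a1 at -1.10.

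**Figure D4:**
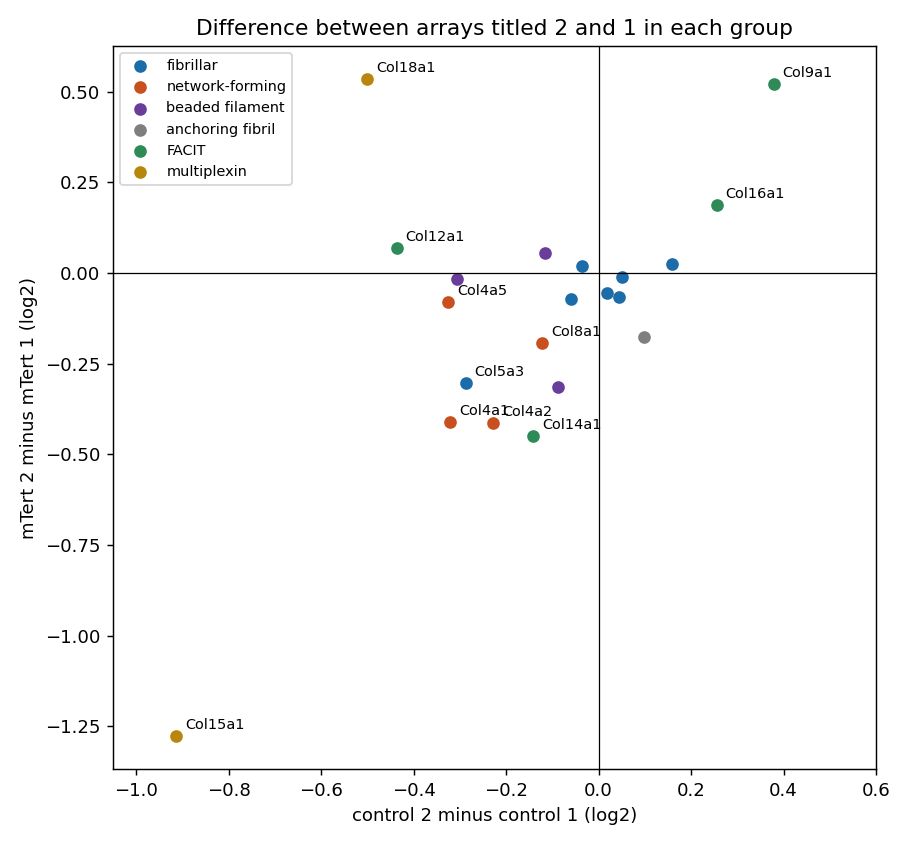
Log2 difference between the array titled 2 and the array titled 1 within control (horizontal axis) and within mTert (vertical axis), 1 point per tested collagen gene, coloured by class. The 4 network-forming genes are negative on both axes, as are 10 of the 21 genes in all, 3 genes are positive on both, and Col18a1 changes sign from -0.50 to 0.54.

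These differences stand beside the macrophage signal, whose sum was about as far apart within control (3253 and 13476) as within mTert (3565 and 13968). Its part in the collagen differences was not tested. Of the fibroblast markers, 6 of 8 were lower in sign on the arrays titled 2 and 2 passed (0.492% of all probe sets were called lower). These were Thy1, a surface protein of fibroblasts, at -0.68 (SE 0.095) and Fap, a surface protease of activated fibroblasts, at -0.94 (SE 0.18), with limma adjusted p of 0.013 and 0.047. The 2 higher ones were S100a4 at 0.36 (SE 0.073, limma adjusted p = 0.065) and Pdgfra at 0.23 (SE 0.11), both without overlap. Summed over all 8 markers, the signal was 38662 and 34795 on the arrays titled 1 and 35902 and 33642 on those titled 2. Vim alone gave 16301 to 18805 of each sum. Of 4 tested cartilage markers all were higher in sign and Comp passed (1.06% of all probe sets were called higher). Matn3 stood at 0.35, Acan at 0.23 and Sox9 at 0.016.

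The genes that make, process and bind collagen were described by 8 lists, with 67 distinct tested members. In the comparison of mTert with control limma called none, and 1 member, the collagen receptor kinase Ddr1, had an unadjusted p under 0.05 (0% and 2.11% of all probe sets), at 0.43 (SE 0.16). Between the arrays titled 2 and 1 limma called 4 members, 2 higher and 2 lower, and 16 had an unadjusted p under 0.05. Of all probe sets 1.55% were called (1.06% higher, 0.492% lower) and 10.5% had such a p. Pcolce2, which speeds the trimming of procollagen ends, rose on the arrays titled 2, with 181 and 165 on those titled 1 and 686 and 610 on those titled 2, by 1.90 (SE 0.16, limma adjusted p = 0.0011). Comp, a cartilage and tendon protein that binds fibrils, rose from 587 and 568 to 1296 and 1345, by 1.19 (SE 0.11, limma adjusted p = 0.0020). Tnc, the matrix glycoprotein tenascin C, fell from 5434 and 5433 to 2325 and 3443, at -0.94 (SE 0.16, limma adjusted p = 0.027). Fap, the fourth, had 801 and 601 against 394 and 331.

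The enzymes of the endoplasmic reticulum that modify the chains stayed closer together. Of 12 tested hydroxylases, cofactors and glycosyltransferases, 6 were higher and 6 lower in mTert, with a median of -0.0076. Those with the smallest p were P3h4 at 0.14, P4ha1 at -0.13, Colgalt1 at 0.19 and P4hb at -0.064. On the arrays titled 2, 11 of the 12 were higher in sign, with a median of 0.047, led by Colgalt1, which attaches galactose to hydroxylysine, at 0.38 (SE 0.11), and Ppib, a prolyl isomerase, at 0.16 (SE 0.064). Crtap stood at 0.083, and Plod2, a lysyl hydroxylase, was the lower one at -0.26 (SE 0.11). None passed in limma (smallest adjusted p = 0.21). Of the 8 chaperones and export factors none passed in either comparison, with medians of -0.0015 and 0.028. Serpinh1, the collagen chaperone HSP47, had 9771 and 9789 in control and 10083 and 9687 in mTert, a difference of 0.015 (SE 0.066). The others with the smallest p were Sec31a (0.21), Mia3 (0.16), Creb3l1 (-0.078) and Sec23a (-0.047) in mTert, and Sec24d (0.13), Sec31a (-0.16), Kdelr1 (0.12) and Serpinh1 (-0.028) between numbers.

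Outside the cell, 4 procollagen proteinases and enhancers were tested. In mTert Bmp1, the proteinase that removes the C-terminal propeptide, stood at 0.31 (SE 0.18), Tll1 at 0.20, Pcolce2 at -0.15 and Pcolce at -0.0030. Between numbers Tll1 stood at -0.56 (SE 0.22), Pcolce at 0.056 and Bmp1 at 0.16. The 4 lysyl oxidases tested, which cross-link fibrils, stood between -0.23 (Loxl4) and 0.076 (Loxl3) in mTert, with Lox at -0.056 and Loxl1 at -0.045. Between numbers they stood between -0.22 (Loxl4) and 0.0037 (Lox), with Loxl3 at -0.043 and Loxl1 at -0.014. None of them passed in limma, and the medians were -0.050 and -0.028.

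Among 6 tested genes of collagen breakdown and uptake, the dipeptidase Pepd stood at -0.29, Ctsk at 0.16, Fap at -0.33 and the uptake receptor Mrc2 at -0.086 in mTert. Between numbers Mrc2 stood at -0.18, Ctsk at -0.17 and Pepd at 0.14, beside the fall of Fap. The collagenases Mmp8 and Mmp13 and the gelatinase Mmp9 were called present on fewer than 2 arrays. Mmp2 and Mmp14, by contrast, were present on all 4 arrays. They stood at 0.042 and -0.015 in mTert and at 0.039 and -0.040 between numbers. Of 4 tested receptors, Ddr2 stood at -0.30, Lair1 at 0.26 and the integrin chain Itgb1 at -0.041 in mTert. Between numbers Lair1, an inhibitory receptor of leukocytes, stood at 0.99 (SE 0.26, limma adjusted p = 0.15), Ddr2 at -0.37, Itgb1 at -0.12 and Ddr1 at 0.023. The Lair1 signal was weak, absent on both arrays titled 1 (63.3 and 72.8). On both titled 2 it was present (121 and 151) at a detection p of 0.046.

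The 14 collagen-binding matrix proteins had 7 members of each sign in both comparisons. The medians were -0.0032 in mTert and -0.041 between numbers. In mTert those with the smallest p were Tgfbi at 0.20, Postn at -0.14, Dcn at -0.23 and the basement membrane protein Nid2 at -0.21. Between numbers Thbs1 at -0.35 (SE 0.077, limma adjusted p = 0.077) and Fn1 at -0.22 (SE 0.057, limma adjusted p = 0.14) followed Comp and Tnc. Both arrays titled 2 lay below both titled 1 in 7 of the 14 and above in 3 (19.4% and 20.3% of all probe sets). Of 15 tested transcription factors of collagen genes, 12 were lower and 3 higher in mTert, with a median of -0.070. Sox9 stood at -0.38 (SE 0.21), Ets1 at -0.30, Smad4 at -0.15 and Cebpd at 0.16. Between numbers the CCAAT-binding subunit Nfyb stood at 0.57 (SE 0.18), Cebpb at 0.26, Sp1, which binds GGGCGG, at -0.24 and Cebpd at 0.28. None of these factors passed in limma in either comparison (smallest adjusted p = 0.27).

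**Figure D5:**
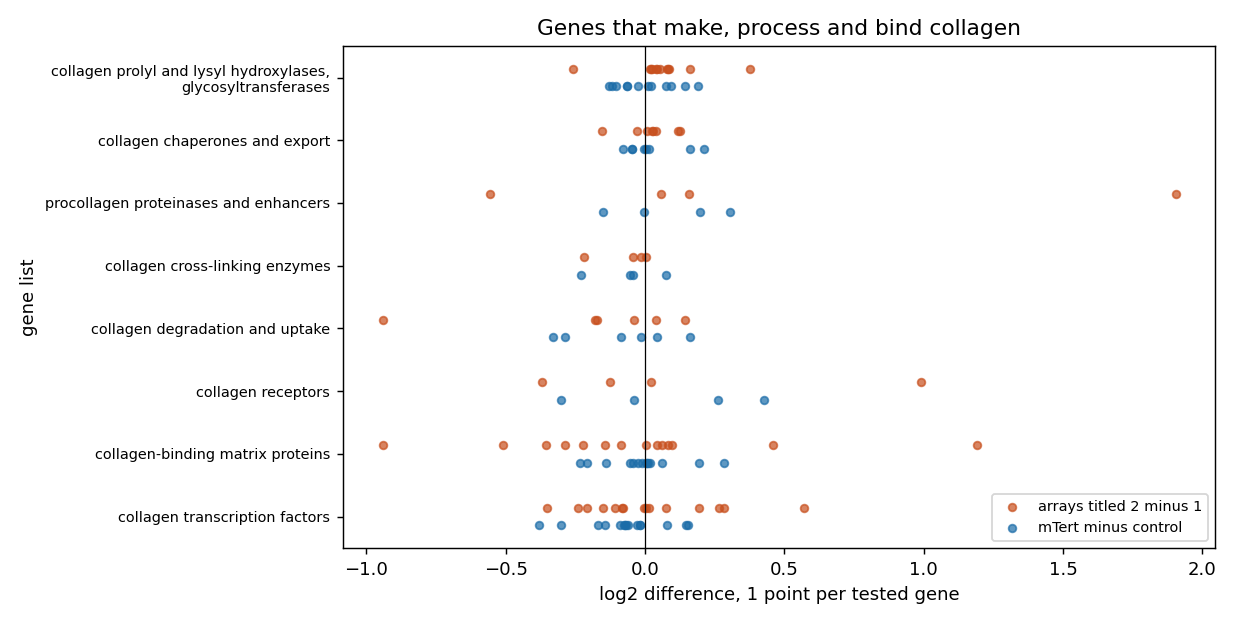
Log2 difference of each tested gene of the 8 lists of collagen biosynthesis, processing, breakdown, receptors, partners and transcription factors, blue for mTert minus control and orange for arrays titled 2 minus arrays titled 1. The orange points reach from -0.94 (Fap and Tnc) to 1.90 (Pcolce2), while the blue points lie between -0.38 (Sox9) and 0.43 (Ddr1).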

How the data were processed

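RNA of 4 samples was hybridised to MOE430A arrays, 1 array per sample, grouped and numbered by their titles. The authors deposited 1 linear signal intensity per probe set, with a detection call and a detection p-value, per the file headers. The sources used here do not name the summarising software. The trimmed means (lowest and highest 2% left out) of 498.593 to 498.779 differ so little that the deposited signals must already be scaled. Here signals were scaled to a common trimmed mean and taken to log2, and a single signal of 0 was replaced by its array's lowest present one. The 64 controls and probe sets present on fewer than 2 arrays were left out, which left 12396. GEO's platform annotation gave the symbols (20380 probe sets with 1 symbol, 691 with several, 1555 with none), and none was taken from a probe set with several. Each comparison was fitted with limma 3.58.1 in R 4.3.3 (lmFit, eBayes with an intensity trend), with p-values adjusted by Benjamini and Hochberg over all 12396. The script was first tested on simulated data. The number of arrays limits the precision. A bound uses each absent array's lowest present signal, or the probe set's own where that is higher. Named are all collagen genes and, for each of the 8 lists, the 4 members with the smallest p in each comparison. The marker lists, which the rule also covered, are given by counts, with members that passed. A few others (Vim, Pdgfrb, Pdgfra, S100a4, Acan, Matn3, Itgam, Mmp2, Mmp14) were chosen after their values were seen, as was Serpinh1 in the mTert comparison. Members, classes and lists were chosen with earlier results of these data known. Alternatives were other scaling, filters, variance models and offsets, a block or further term, other class borders, and each array left out. Arrays of one number correlated at 0.984 across groups in both pairs, against 0.971 within each group. Nothing in the labels ties a number to a shared culture.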

Additional observations from a re-analysis of the deposited data

How the results depend on the processing

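With a replicate block limma called 0 collagen genes between mTert and control, and 18 of all probe sets (0.145%), Tert among them. Without it the fit called 0 of both. Under the other alternatives run for this comparison, which left out the scaling, the filter on calls or the intensity trend, or added an offset, the count also stayed at 0. Between arrays titled 2 and 1 the count of 1 (Col15a1) was 0 with no filter on present calls (adjusted p of Col15a1 0.17), 0 with no intensity trend (0.096) and 0 among probe sets present on all 4 arrays, where Col15a1 is not tested. It was 2 with the group as a further term, and 0 to 1 with 1 array left out. The fibrillar median between numbers was -0.046 after quantile normalization and 0.018 with the mean over the tested probe sets of a gene, and -0.030 to -0.0061 with 1 array left out. The network-forming median between numbers was -0.20 with type VI counted in, and -0.30 to -0.22 with 1 array left out. Between mTert and control the fibrillar median was -0.027 to -0.015 with 1 array left out, and the network-forming one -0.17 to 0.15. Quantile normalization turned the sign of the mTert difference of Col5a3 (0.0066), Col6a3 (0.00093) and Col7a1 (-0.0049).

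With 1 array left out, each comparison takes in part of the other one. The mTert difference then turned sign in 15 of 21 genes, over ranges of -0.12 to 0.041 for Col1a1, -0.026 to 0.046 for Col3a1, -0.29 to 0.12 for Col4a1, -0.24 to 0.17 for Col4a2, -0.15 to 0.15 for Col5a3, -0.050 to 0.25 for Col6a1, -0.19 to 0.12 for Col6a3 and -0.065 to 0.11 for Col7a1. The others were -0.088 to 0.11 for Col8a1, -0.31 to 0.22 for Col9a1, -0.074 to 0.36 for Col12a1, -0.38 to 0.073 for Col14a1, -0.40 to 0.88 for Col15a1, -0.063 to 0.19 for Col16a1 and -0.25 to 0.28 for Col18a1. The difference between numbers turned sign in 8 genes, over ranges of -0.013 to 0.051 for Col1a2, -0.12 to 0.10 for Col5a1, -0.039 to 0.021 for Col5a2, -0.13 to 0.066 for Col6a2, -0.12 to 0.042 for Col7a1, -0.067 to 0.030 for Col11a1, -0.38 to 0.015 for Col12a1 and -0.25 to 0.28 for Col18a1. It kept its sign in the other 13, with Col4a1 at -0.43 to -0.30 and Col15a1 at -1.31 to -0.88.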
